A study of Mus musculus with 8 samples.

Results

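Granulocyte progenitors (GPs) that lacked surface Flt3 were compared between mice labelled as deficient for Irf8 and wild-type mice, gene by gene. The comparison used the 4 arrays whose titles name Flt3- GPs, 2 of them wild type and 2 labelled Irf8KO, out of 8 arrays in the series. The other 4 arrays held Flt3+ GPs of the same genotypes. They served to estimate the spread, to help choose the probes and genes tested, and to show where the Flt3- population differed. All samples were primary cells sorted from bone marrow without further treatment, and each group was sampled once in each of 2 experiments. The Irf8 allele, the strain, the age of the mice and the number of mice behind a sample are not given in the sources used here. The p-values therefore cover no more than the spread among these samples, which may be technical.

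IRF8 is a transcription factor of the interferon regulatory factor family. It binds DNA weakly alone and more tightly with partners such as PU.1 (Spi1) at composite ETS-IRF elements, or at interferon response elements. In the bone marrow it is known for steering myeloid progenitors towards monocytes and dendritic cells and away from neutrophils, so that mice without it accumulate granulocytes. Flt3 is the receptor for Flt3 ligand and is carried by early multipotent, lymphoid and dendritic progenitors. Most progenitors lose it as they commit to the granulocyte lineage.

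Levels are given as log2 of the signal over the 75th percentile of the array, so that 0 is the level of a probe at that percentile. Differences are the mean of the Irf8KO-labelled arrays minus the mean of the wild-type arrays, on the same log2 scale, with a standard error (SE) from the limma fit. The levels of different probes cannot be set against each other. The share of spots well above background was 54.9 to 60.1% per array, and the 2 arrays of a group correlated at r of 0.9958 to 0.9973 over genes, which are not independent replicates. Of the probes of defining genes, Irf8 read 4.85 and 4.88 on the wild-type and 5.64 and 5.53 on the Irf8KO-labelled Flt3- arrays, which was higher on the latter by 0.72 (SE 0.051, limma adjusted p = 0.000405). The sources used here do not say whether the Irf8 probe targets the deleted stretch, so it checks nothing about the labels, and every direction below rests on them. The 20 measured primary granule and early granulocyte genes, which mark the labelled cell type, were well above background on all 4 Flt3- arrays. Wild-type arrays lay in 1 row of the slide and Irf8KO-labelled arrays in the other, so row and genotype cannot be told apart.

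Of 14105 genes tested, 6144 (43.6%) passed the limma test at an adjusted p under 0.05, 2315 higher (16.4%) and 3829 lower (27.1%) on the Irf8KO-labelled arrays. Most of these differences were small, and the median over all genes was -0.035. The excess of lower calls depended on the normalization: 37.7% of the calls were higher here and 46.5% after quantile normalization, where the median was -0.001. Counts of list members in Flt3- GPs below stand against the 16.4% higher and 27.1% lower over all genes. A change of at least 2-fold was called for 512 genes (3.63%), 249 higher (1.77%) and 263 lower (1.86%). Of these, 466 were also called 2-fold when only genes well above background on both arrays of a Flt3- group entered the fit. With a background correction that adds an offset of 50 to every signal, which draws dim genes together, 149 genes reached 2-fold, and 147 of them were among the 512. Leaving out 1 wild-type Flt3- array (experiment 2) lowered the count of all called genes to 4051.

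**Figure D1:**
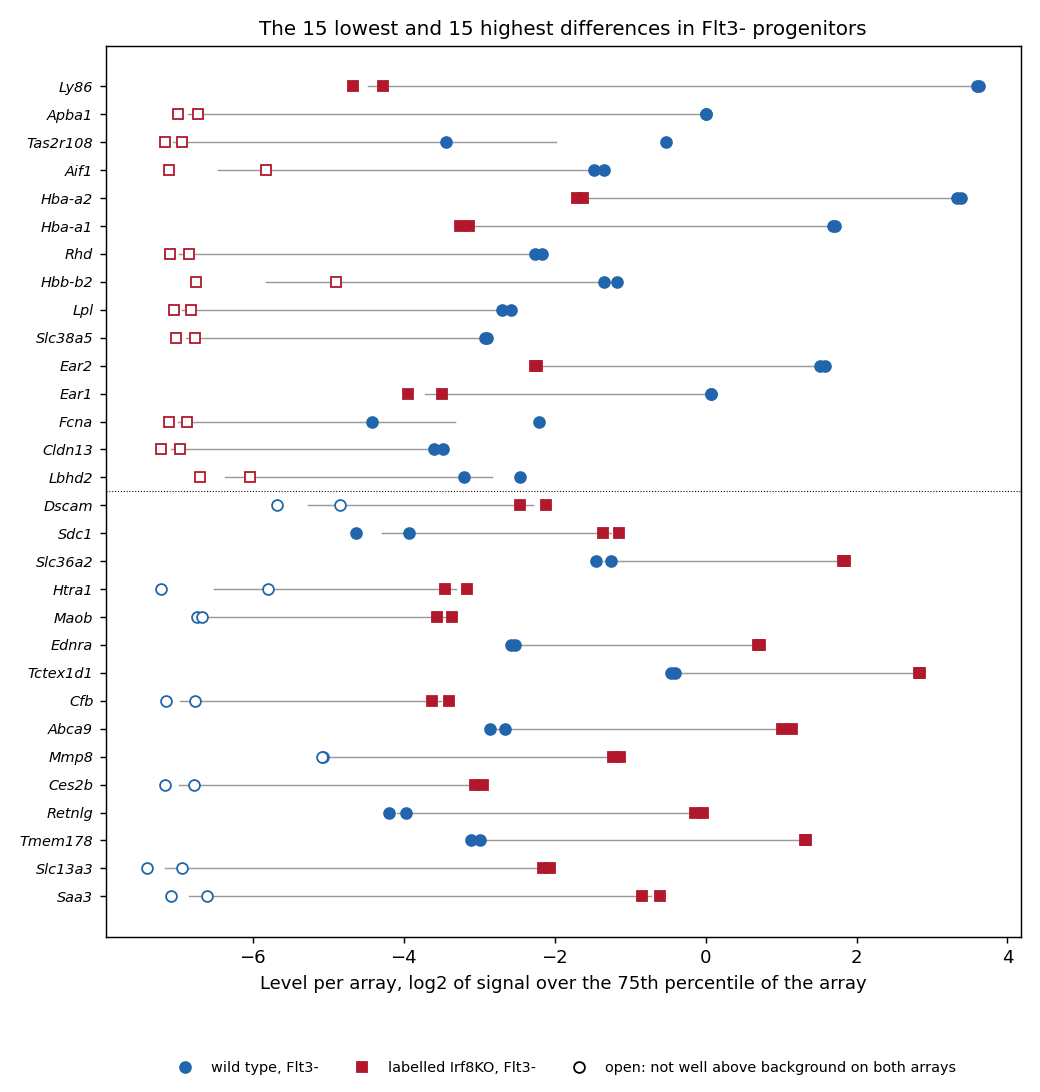
Level on each array (horizontal axis, log2 of signal over the 75th percentile of the array) of the 15 genes with the lowest and the 15 with the highest difference among those called in Flt3- GPs. Circles are the 2 wild-type arrays, squares the 2 Irf8KO-labelled arrays, lines join the group means, and open symbols mark groups not well above background on both arrays. The groups do not overlap in these 30 genes, which were chosen for their differences. Over all genes tested they lie apart in 32.4% (higher) and 42.8% (lower).

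The largest fall was in Ly86, which encodes MD-1, the secreted partner of the Toll-like receptor homologue Cd180. Ly86 read 3.62 and 3.60 on the wild-type arrays and -4.28 and -4.67 on the Irf8KO-labelled arrays. The fitted fall was 271-fold (-8.08, SE 0.13, adjusted p = 5.34e-06). The probe was well above background on both Irf8KO-labelled arrays but near the lowest measurable signal, so the size of the fall is uncertain. Its partner did not follow it. Cd180 read -3.37 and -3.42 on the wild-type and -3.25 and -3.04 on the Irf8KO-labelled arrays, a difference of 0.24 (SE 0.078, adjusted p = 0.0499) that lay at the edge of the threshold. Among the paired receptors of bacterial lipids, Tlr4, the lipopolysaccharide receptor, rose by 0.53 (SE 0.064, adjusted p = 0.00194). Ly96, which encodes its partner MD-2, stood at 0.13 (adjusted p = 0.378), and Tlr2, the lipopeptide receptor, rose by 0.31 (adjusted p = 0.0202).

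Of 27 measured Toll-like receptors and accessory proteins, 12 rose and 3 fell, with a median of 0.20. The count of rising members was 6 or 7 when either wild-type array or the Irf8KO-labelled array of experiment 2 was left out. Tlr5, the flagellin receptor, was not well above background on either wild-type array and was at least 1.44-fold higher on the Irf8KO-labelled arrays, on 1 of which it was well above background. The co-receptor Cd14 rose by 0.69 and Unc93b1, which escorts the endosomal receptors, by 0.55. Besides Ly86, Tlr12 fell by 1.15 and Irak3, an inhibitory kinase of the pathway, fell by 0.43. Neither the endosomal receptor Tlr9 (0.17) nor the adaptor Myd88 (0.17) passed the test. The endosomal receptor Tlr7 stood at 0.14 on its brighter probe, which did not pass, and at 2.995 on its other probe, so no direction is given for it.

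A small group of genes, several of them known from macrophages, fell to the background level. Apba1, an adaptor protein of the Mint family, read 0.00017 and 0.0083 on the wild-type arrays and was not well above background on either Irf8KO-labelled array, a fall of at least 30.1-fold against the lowest measurable signal (fitted -6.86, SE 0.11, adjusted p = 5.34e-06). Aif1, which encodes the macrophage protein Iba1, read -1.48 and -1.35 and fell at least 11.3-fold (fitted -5.05, SE 0.39, adjusted p = 0.000493). Lpl, lipoprotein lipase, read -2.70 and -2.58 and fell at least 4.82-fold, and Slc38a5, an amino acid transporter, read -2.89 and -2.92 on the wild-type arrays. In each of these genes the wild-type arrays lay close together and neither Irf8KO-labelled array was well above background.

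The complement component chains C1qa and C1qc were dim on the Irf8KO-labelled arrays, at least 2.22-fold and at least 1.79-fold lower, while C1qb (-0.15) did not pass the test. Fcna, a soluble lectin of macrophages, fell at least 3.01-fold, although its wild-type arrays differed from each other (-2.21 and -4.43). Tas2r108, a bitter taste receptor, was also spread on the wild-type arrays (-3.43 and -0.53) and fell at least 7.60-fold. Cldn13, a claudin, fell at least 2.59-fold and Lbhd2, a little studied gene, at least 4.23-fold.

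Some enzymes that process antigens in the lysosome were lower. Ctss, cathepsin S, read 0.90 and 0.91 on the wild-type and -0.76 and -0.92 on the Irf8KO-labelled arrays, a difference of -1.75 (SE 0.082, adjusted p = 0.000133). Ctsh, cathepsin H, fell by 1.66 (SE 0.037), Lgmn, legumain, fell by 1.85 and was well above background on 1 of the Irf8KO-labelled arrays, and Ifi30, a lysosomal thiol reductase, fell by 0.84. Of 36 measured cathepsins and lysosomal hydrolases 12 fell and 6 rose, shares near those over all genes, and 9 fell and 10 rose after quantile normalization. Ctsf, cathepsin F, rose by 1.47 (SE 0.058), while Ctsb (0.15) and Ctsd (-0.10) did not pass the test. Of 18 measured genes of MHC class II antigen presentation 7 fell and 3 rose, with a median of -0.25 that was 0.007 with the offset of 50. The falling members were led by Lgmn, Ctss and Ifi30, and among the class II chains H2-Aa (-1.61, adjusted p = 0.0535), H2-Ab1 (-0.073) and H2-Eb1 (-0.10) did not pass the test. Cd74, the invariant chain, fell by 0.38, and with the offset of 50 its difference was 0.013.

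Of 19 measured genes of the Naip, inflammasome and gasdermin list 5 fell and 5 rose, and the share that fell was near that over all genes. The Naip genes, sensors of bacterial flagellin and needle proteins, held the largest falls. Naip6 read 0.63 and 0.60 on the wild-type and -2.32 and -2.41 on the Irf8KO-labelled arrays, a difference of -2.98 (SE 0.22, adjusted p = 0.000465), and Naip2 fell by 1.17 (SE 0.074). Naip5 (0.19) and Naip1 (-1.85, adjusted p = 0.0597) did not pass the test, and members of this near-identical family can share hybridisation. Nlrc4, the adaptor with which the Naip proteins assemble, rose by 0.66 (SE 0.089). Of 30 measured genes that have been described as IRF8 targets, 13 fell and 8 rose, with a median of -0.14. This list holds Ly86, Apba1 and Aif1, whose falls are given above. It was chosen with earlier results of these data known, so the count is no test of IRF8 targets. The rising members numbered 5 without either wild-type array or without the Irf8KO-labelled array of experiment 2. Blnk, an adaptor of B cell receptor signalling, fell by 1.42, and Fas, the death receptor, rose by 1.20.

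Other genes of the monocyte and macrophage list went the other way. Of its 38 measured members 20 rose and 12 fell, with a median of 0.25 (0.383 over members well above background on all 8 arrays and 0.136 without a filter). Ccr2, the chemokine receptor that inflammatory monocytes use to leave the marrow, read 1.06 and 1.13 on the wild-type and 3.23 and 3.17 on the Irf8KO-labelled arrays, a rise of 4.30-fold (2.10, SE 0.053, adjusted p = 2.4e-05). F13a1, the clotting factor XIII subunit of monocytes, rose by 1.53 (SE 0.046), and Adgre1, which encodes F4/80, rose by 1.31 (SE 0.089). Csf1r, the receptor for macrophage colony-stimulating factor, rose by 0.62 (SE 0.041), and its 3 probes well above background gave 0.32 to 0.62. Klf4, a transcription factor of monocytes, fell by 0.41 (SE 0.096) and Cx3cr1, the fractalkine receptor, fell by 0.60 (SE 0.084).

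**Figure D2:**
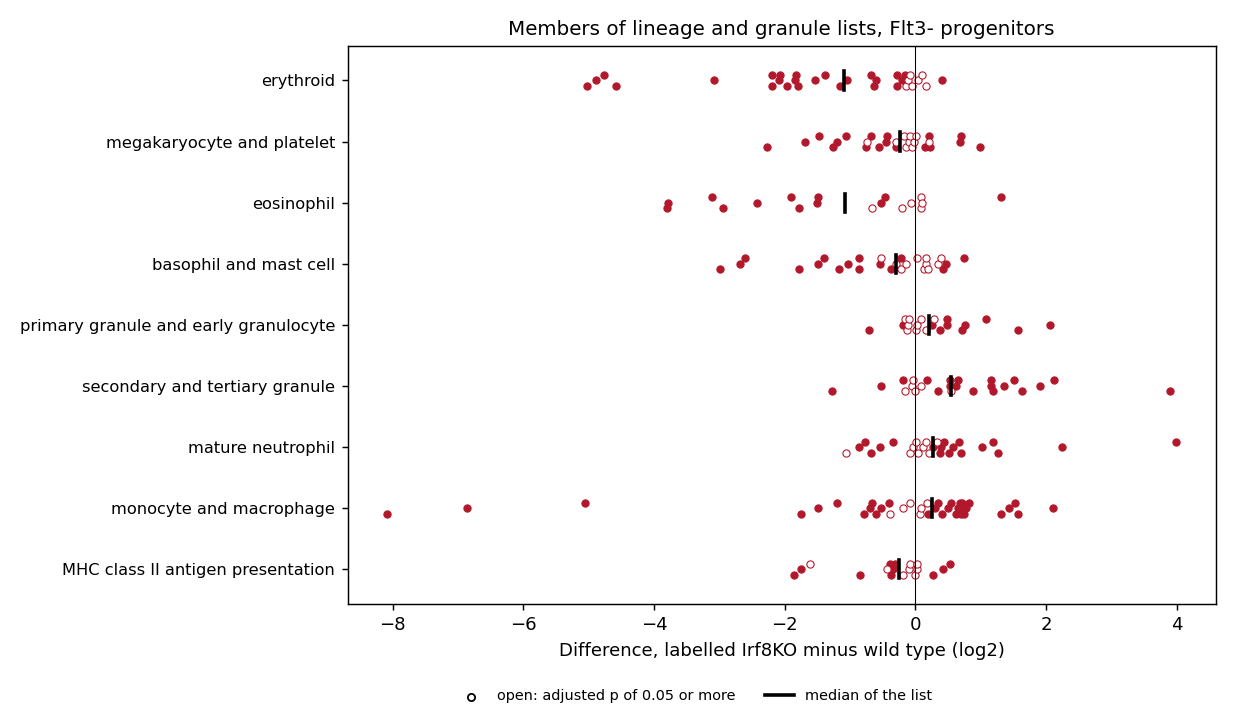
Difference of each measured member (points, log2, Irf8KO-labelled minus wild type) of 9 lineage and granule lists in Flt3- GPs; filled points had an adjusted p under 0.05, open points did not, and black bars are the list medians. The erythroid and eosinophil medians lie near -1.1, the secondary granule median at 0.55, and the monocyte list is split, with the fitted values of Ly86, Apba1 and Aif1 below -5.

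Erythroid genes were lower. Of 32 measured members 24 fell and 1 rose, with a median of -1.09. The size of this median depended on the dim members: it was -0.65 with dim genes set at their lower bound, -0.442 over the 24 members well above background on all 8 arrays, and -0.335 with the offset of 50. The alpha globin genes led: Hba-a2 read 3.33 and 3.38 on the wild-type and -1.70 and -1.63 on the Irf8KO-labelled arrays, a difference of -5.02 (SE 0.083, adjusted p = 5.34e-06). Hba-a1 fell by 4.89 (SE 0.12). The adult beta globin Hbb-bt fell by 3.08 (SE 0.044), and Hbb-b2 at least 12.6-fold. Globin genes of a family share hybridisation, so these values are not independent. Outside the globins, Epor, the erythropoietin receptor, fell by 2.09 (SE 0.12), Aqp1, a water channel, fell by 2.19 (SE 0.064), and Rhd, the Rhesus antigen, fell at least 6.48-fold. The transcription factor Gata1 fell by 1.82 (SE 0.23, adjusted p = 0.00217), and Klf1 fell at least 2.89-fold. Tfrc, the transferrin receptor (-0.085), and Nfe2 (0.038) did not pass the test. In bulk samples fewer cells of a type and less RNA per cell cannot be told apart. The summed level of the measured erythroid list (log2 of the sum of its members over the 75th percentile) was 7.49 to 7.51 on the wild-type and 7.23 to 7.26 on the Irf8KO-labelled arrays. The brightest probes weigh most in such a sum, here and in the lists below, so it does not measure how many cells of a type were present. The part of erythroid cells among the sorted cells in other differences was not tested.

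Of 28 measured megakaryocyte and platelet genes 12 fell and 6 rose, with a median of -0.23 (-0.138 without the wild-type array of experiment 1). Itga2b, the platelet integrin CD41, read 1.42 and 1.41 on the wild-type and -0.28 and -0.27 on the Irf8KO-labelled arrays, a difference of -1.69 (SE 0.054). The platelet chemokines fell too, Pf4 by 2.09-fold and Ppbp at least 1.67-fold. Clu, clusterin, rose by 0.99 (SE 0.063). The summed level of the list was 6.23 to 6.28 on the wild-type and 5.99 to 6.01 on the Irf8KO-labelled arrays.

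Eosinophil genes were lower. Of 18 measured members 11 fell and 1 rose, with a median of -1.07. That median was -0.499 over the 14 members well above background on all 8 arrays and -0.53 over 21 members without a filter. The eosinophil-associated ribonucleases fell most: Ear2 read 1.52 and 1.58 on the wild-type and -2.24 and -2.27 on the Irf8KO-labelled arrays, a difference of -3.80 (SE 0.088, adjusted p = 1.86e-05). Ear1 (-3.79), Rnase2a (-3.11) and Ear10 (-2.94) fell with it, although probes of this family can share hybridisation. The granule proteins Prg2, major basic protein, and Prg3 fell by 2.42 (SE 0.054) and 1.91 (SE 0.28). Prg2 read 3.05 and 3.06 on the wild-type and 0.68 and 0.59 on the Irf8KO-labelled arrays. Epx, eosinophil peroxidase (-0.20), and the surface lectin Siglecf (-0.062) did not pass the test. The single rising member was Adgre1, which macrophages also express. The summed level of the list was 6.83 to 6.87 on the wild-type and 6.38 to 6.40 on the Irf8KO-labelled arrays.

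Of the 27 measured members of the basophil and mast cell list 13 fell and 3 rose, with a median of -0.30, and -0.01 with the offset of 50. Both IgE receptor chains that are specific to these cells fell: Ms4a2 read -1.32 and -1.39 on the wild-type and -4.08 and -3.83 on the Irf8KO-labelled arrays (-2.60, SE 0.22, adjusted p = 0.000673), and Fcer1a fell at least 2.84-fold. The proteases Prss34 of basophils and Cpa3 of mast cells fell by 2.69 (SE 0.093) and 1.49 (SE 0.067). Gata2, the transcription factor shared by these lineages and by stem cells, fell by 1.17 (SE 0.042), and Il1rl1, the receptor for interleukin 33, fell by 1.79 (SE 0.11). Mcpt8, a protease of basophils, fell by 0.22 (adjusted p = 0.0447), and Tpsb2, a tryptase, stood at 0.13 (adjusted p = 0.207). Kit, the receptor for stem cell factor, rose by 0.42 (SE 0.044). The summed level of the list was 8.74 to 8.79 on the wild-type and 8.59 to 8.62 on the Irf8KO-labelled arrays, and the part of eosinophil, basophil or mast cell precursors in other differences was not tested.

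Granule genes of the neutrophil lineage were higher, with the larger median for the late granules. In the list of secondary and tertiary granules 16 of 25 measured members rose and 3 fell, with a median of 0.55 (0.357 with the offset of 50). Mmp8, neutrophil collagenase, was not well above background on either wild-type array and read -1.13 and -1.22 on the Irf8KO-labelled arrays, at least 14.7-fold higher (fitted 3.90, SE 0.064, adjusted p = 5.34e-06). S100a9, a calcium-binding alarmin, read 2.01 and 2.02 on the wild-type and 3.93 and 3.92 on the Irf8KO-labelled arrays, a rise of 3.76-fold (1.91, SE 0.041). Its partner S100a8 rose by 0.35 (SE 0.038), so that the members of this heterodimer moved by unequal amounts on their probes. Ngp, neutrophilic granule protein, rose by 1.52 (SE 0.065), and Ltf, lactoferrin, by 1.35 (SE 0.13). The gelatinase Mmp9 was well above background on 1 Irf8KO-labelled array and on neither wild-type array, at least 1.30-fold higher. Wfdc21 went against the list and fell by 1.28 (SE 0.067), and Slpi (-0.031), Anxa1 (-0.15) and Lrg1 (0.087) did not pass the test.

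In the list of primary granule and early granulocyte genes 9 of 20 measured members rose and 2 fell, with a median of 0.21 (0.075 after quantile normalization and 0.119 without the Irf8KO-labelled array of experiment 1). Elane, neutrophil elastase, read 8.36 and 8.25 on the wild-type and 8.79 and 8.80 on the Irf8KO-labelled arrays, a rise of 0.49 (SE 0.054). Mpo, myeloperoxidase (0.28, adjusted p = 0.102), and Ctsg, cathepsin G (0.16), did not pass the test. The surface lectin Clec5a rose by 2.06 (SE 0.19) and Dmkn, dermokine, by 1.57 (SE 0.16), while Cd63, the granule membrane tetraspanin, fell by 0.71 (SE 0.053).

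Retnlg, a resistin-like protein of neutrophils, led the list of mature neutrophil genes, of which 13 of 27 rose and 5 fell. It read -4.20 and -3.97 on the wild-type and -0.041 and -0.15 on the Irf8KO-labelled arrays, a rise of 15.9-fold (3.99, SE 0.084, adjusted p = 1.65e-05). Its relative Retn (0.26) did not pass the test. The formyl peptide receptor Fpr2 was well above background on 1 Irf8KO-labelled array and on neither wild-type array, and Mrgpra2a and Mrgpra2b, related receptors whose probes may share signal, rose by 1.19 and 1.27. The receptor for granulocyte colony-stimulating factor, Csf3r, stood at 0.21 (SE 0.071, adjusted p = 0.0553), and Itgam, the integrin CD11b, at 0.17 (adjusted p = 0.184). Hdc, the enzyme that makes histamine, fell by 0.86 (SE 0.064).

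The largest fitted rise was in Saa3, an acute phase serum amyloid protein. It was not well above background on either wild-type array and read -0.84 and -0.60 on the Irf8KO-labelled arrays, at least 23.5-fold higher (fitted 6.12, SE 0.19, adjusted p = 4.71e-05). Complement genes accompanied it: C3 read 5.06 and 5.07 on the wild-type and 6.67 and 6.66 on the Irf8KO-labelled arrays (1.59, SE 0.059), and Cfb, factor B, was at least 3.39-fold higher. C4b rose by 0.96 (SE 0.078). Of 16 measured acute phase and complement genes 9 rose and 3 fell, with a median of 0.23, and the falling members were C1qa, C1qc and Cd55, a regulator that protects cells from complement (-1.05).

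Several transporters, enzymes and receptors outside the groups described so far stood among the highest differences. Slc13a3, a dicarboxylate transporter, was at least 8.97-fold higher. Tmem178, a membrane protein, rose from -3.11 and -2.99 to 1.32 and 1.32 (20.8-fold, SE 0.053 log2), and Abca9, an ABC transporter, from -2.66 and -2.86 to 1.14 and 1.01 (14.3-fold). Tctex1d1, a dynein light chain family member, rose 9.62-fold, Ednra, the endothelin receptor, 9.56-fold, and Slc36a2, an amino acid transporter, 9.07-fold. In none of these genes did the groups overlap. Over all genes tested, the Irf8KO-labelled arrays lay wholly above the wild-type ones in 32.4% and wholly below in 42.8%. Sdc1, the proteoglycan syndecan 1, rose 8.20-fold from a more spread pair of wild-type arrays (-4.64 and -3.93). The lower of these lay near the lowest measurable signal, so the size of this rise is uncertain. Ces2b, a carboxylesterase, Maob, a monoamine oxidase, Htra1, a secreted protease, and Dscam, an adhesion molecule, were dim on the wild-type arrays and at least 4.83-, 3.51-, 3.91- and 7.43-fold higher.

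The bases before the start site are shown for 5 of these genes because they are among the genes that changed at least 2-fold and hold letters that are like the elements bound by interferon regulatory or C/EBP factors. The windows are the 250 bases upstream of the RefSeq start (build GRCm38.p6), 5′ to 3′ on the strand of the gene. Capitals mark the matches, on either strand, to an interferon response element in Aif1, Ctss and Saa3 and to a C/EBP site in Saa3, Mmp8 and Retnlg. Aif1 lies at chr17:35176053-35176302 (minus strand), Ctss at chr3:95526536-95526785 (plus), Saa3 at chr7:46715677-46715926 (minus), Mmp8 at chr9:7558179-7558428 (plus) and Retnlg at chr16:48872358-48872607 (plus).
Aif1: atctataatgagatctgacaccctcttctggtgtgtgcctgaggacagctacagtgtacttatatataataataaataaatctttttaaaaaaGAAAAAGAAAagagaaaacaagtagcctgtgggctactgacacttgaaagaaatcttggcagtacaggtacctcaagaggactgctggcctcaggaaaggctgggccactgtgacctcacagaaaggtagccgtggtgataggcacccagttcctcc
Ctss: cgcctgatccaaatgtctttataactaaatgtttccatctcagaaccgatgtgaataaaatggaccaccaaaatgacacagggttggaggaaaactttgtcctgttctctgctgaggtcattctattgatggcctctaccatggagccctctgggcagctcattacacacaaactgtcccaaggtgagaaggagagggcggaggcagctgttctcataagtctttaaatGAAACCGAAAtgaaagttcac
Saa3: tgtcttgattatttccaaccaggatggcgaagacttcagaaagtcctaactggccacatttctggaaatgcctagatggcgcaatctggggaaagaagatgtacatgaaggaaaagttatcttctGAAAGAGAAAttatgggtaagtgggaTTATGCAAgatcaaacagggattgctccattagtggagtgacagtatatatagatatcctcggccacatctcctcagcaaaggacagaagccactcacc
Mmp8: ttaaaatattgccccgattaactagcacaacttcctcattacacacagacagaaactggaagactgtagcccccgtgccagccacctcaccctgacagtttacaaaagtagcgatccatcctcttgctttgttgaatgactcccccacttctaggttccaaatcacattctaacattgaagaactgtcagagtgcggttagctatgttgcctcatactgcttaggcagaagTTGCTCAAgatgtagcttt
Retnlg: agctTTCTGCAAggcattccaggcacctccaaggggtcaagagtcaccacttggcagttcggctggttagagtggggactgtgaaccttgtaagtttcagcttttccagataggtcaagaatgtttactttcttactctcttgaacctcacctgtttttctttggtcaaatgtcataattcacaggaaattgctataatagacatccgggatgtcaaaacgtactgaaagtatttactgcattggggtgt
Of the 2 genes that fell, Ctss holds its match 21 to 12 bases before the start and Aif1 157 to 148 bases before it. Of those that rose, Saa3 holds both kinds of match, at 125 to 116 and at 99 to 92 bases, Mmp8 holds its own at 19 to 12 bases and Retnlg at 246 to 239 bases. The window of Ly86 held neither, nor a match to an ETS-IRF composite element. Saa3 also holds a match to a GATA site at 134 to 129 bases, which is not in capitals.

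Such matches occur in many promoters. The interferon response element was matched in 2.98% of all 32851 RefSeq windows of that length, the ETS-IRF composite element in 2.3% and the C/EBP site in 9.56%. A window was at hand for 11298 of the 14105 genes tested, of which 3.36% matched the interferon response element. The share was 6.99% (13 of 186) of the genes that rose at least 2-fold and 3.35% (7 of 209) of those that fell at least 2-fold. The ETS-IRF composite element was matched in 2.69% and 3.35% of the same genes, and in 2.48% of all genes tested. The C/EBP site was matched in 16.1% (30 of 186) of the rising and 13.9% (29 of 209) of the falling genes, and in 9.54% of all genes tested. Among measured secondary and tertiary granule genes with a window it was 36.4% (8 of 22), and among the eosinophil genes 38.5% (5 of 13). A GATA site (AGATAA) was matched in 11.8% (22 of 186) of the rising and 15.3% (32 of 209) of the falling genes, and in 8.2% of all genes tested. These shares describe letters only and were not tested.

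Genes of cell division were lower in Flt3- GPs. Of 41 measured G2 and M phase genes 32 fell and none rose, with a median of -0.33, and of 50 measured S phase genes 45 fell and none rose, with a median of -0.47. None of these changes reached 2-fold, and after quantile normalization the medians were -0.28 for G2 and M phase and -0.36 for S phase. Ccne1, cyclin E1, read 2.50 and 2.47 on the wild-type and 1.55 and 1.59 on the Irf8KO-labelled arrays, a difference of -0.92 (SE 0.053, adjusted p = 0.000234). Ccna2, cyclin A2, read 3.74 and 3.72 and 3.09 and 3.15, a difference of -0.61 (SE 0.049). The replication licensing genes Mcm2 and Cdc6 fell by 0.58 (SE 0.041) and 0.72 (SE 0.061), the ribonucleotide reductase subunit Rrm1 by 0.67 (SE 0.064), and the transcription factor E2f1 was lower (-0.64, SE 0.044). Mki67, a marker of cycling cells, fell by 0.25 (SE 0.067, adjusted p = 0.0295). Without 1 array at a time the number of falling G2 and M phase genes ran from 25 to 31 and that of S phase genes from 40 to 45.

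Cyclins of the G1 phase were lower. Ccnd1, cyclin D1, read 1.10 and 1.11 on the wild-type and -0.57 and -0.58 on the Irf8KO-labelled arrays, a fall of 3.21-fold (-1.68, SE 0.052, adjusted p = 4.73e-05). Ccnd3 fell by 0.69 (SE 0.047) and Ccnd2 by 0.36 (SE 0.039). Cdkn1a, which encodes the cell cycle inhibitor p21, rose by 0.94 (SE 0.050) on its brightest probe, but stood at -0.26 (adjusted p = 0.335) when all its probes were averaged. Of 17 measured CDK inhibitors and D and E cyclins 9 fell and 2 rose.

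Growth genes moved with them. Of 46 measured ribosome biogenesis genes 38 fell and 1 rose, with a median of -0.39 (-0.28 after quantile normalization). Ncl, nucleolin, read 7.03 and 7.01 on the wild-type and 6.53 and 6.61 on the Irf8KO-labelled arrays, a difference of -0.46 (SE 0.044). Nolc1, a nucleolar chaperone, fell by 0.66 (SE 0.042) and Rrp12, an export factor of ribosomal subunits, by 0.76 (SE 0.093). Myc, the transcription factor best known for driving these genes, stood at 0.10 (SE 0.058, adjusted p = 0.234). Of 33 measured cholesterol and fatty acid synthesis genes 17 fell and 3 rose, with a median of -0.21. Sqle, squalene epoxidase (-0.77, SE 0.042), and Fads2, a fatty acid desaturase (-1.42, SE 0.099), fell. Of 30 measured glycolysis genes 10 fell and 4 rose, shares near those over all genes, with Ldha, lactate dehydrogenase (-0.61, SE 0.042), and the glucose transporter Slc2a3 (-0.79, SE 0.086) lower.

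**Figure D3:**
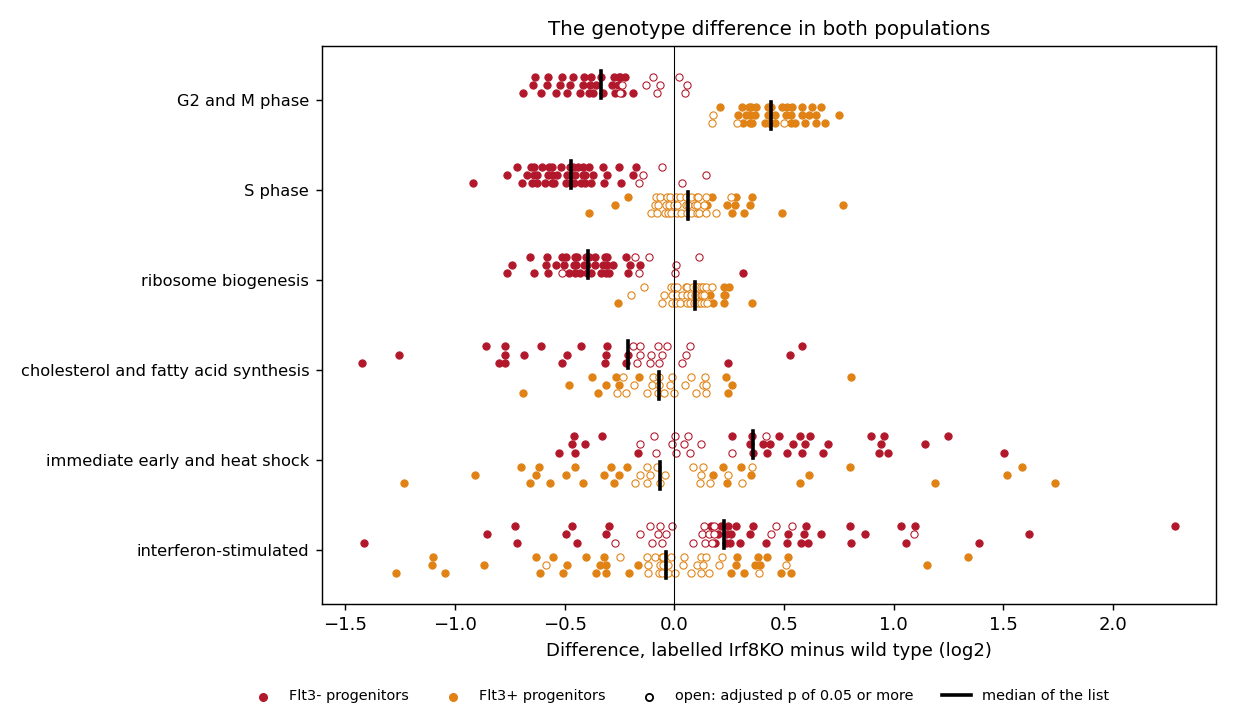
Genotype difference (log2, Irf8KO-labelled minus wild type) of each measured member of 6 lists in Flt3- GPs (red) and Flt3+ GPs (orange); filled points had an adjusted p under 0.05 in that population and black bars are the list medians. The G2 and M phase medians are -0.33 in Flt3- and 0.44 in Flt3+ GPs, and the immediate early and interferon-stimulated medians are above 0 in Flt3- GPs only.

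The genotype difference of these genes was unequal between Flt3- and Flt3+ GPs by the test of the difference itself. In Flt3+ GPs 28.8% of all genes were called, 16.3% higher and 12.5% lower. In the interaction, which is the genotype difference in Flt3- minus that in Flt3+ GPs, 30.7% were called, 9.47% higher and 21.3% lower. Of the 41 G2 and M phase genes 37 rose and none fell in Flt3+ GPs (median 0.44), and 40 were called lower in the interaction. Plk1, the mitotic kinase, fell by 0.42 (SE 0.044) in Flt3- GPs and rose by 0.63 (SE 0.044) in Flt3+ GPs, an interaction of -1.05 (SE 0.063, adjusted p = 0.000884). Of the 50 S phase genes 11 rose and 3 fell in Flt3+ GPs (median 0.061), and 43 were lower in the interaction. Of the 46 ribosome biogenesis genes 8 rose and 1 fell in Flt3+ GPs (median 0.10), and 38 were lower in the interaction. Ccnd1 read 2.53 and 2.65 on the wild-type and 2.76 and 2.82 on the Irf8KO-labelled Flt3+ arrays, and its interaction was -1.88 (SE 0.074, adjusted p = 0.000285).

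Immediate early genes, which cells switch on within minutes of a stimulus or of handling, were higher in Flt3- GPs. Of the 43 measured members of the immediate early and heat shock list 24 rose and 7 fell, with a median of 0.36. Zfp36, a feedback regulator of cytokine messages, read -1.97 and -2.17 on the wild-type and -1.13 and -1.13 on the Irf8KO-labelled arrays, a rise of 0.94 (SE 0.082, adjusted p = 0.000705). The phosphatase Dusp1 rose by 0.60 (SE 0.047) and the transcription factor Fos by 0.93 (SE 0.056). In Flt3+ GPs 12 members of the list rose and 15 fell, and 19 were higher and 9 lower in the interaction. Fos stood at -0.29 (SE 0.056) there, Zfp36 at -0.66 (SE 0.082) and Egr1 at -0.91 (SE 0.071), while Egr1 rose by 0.57 (SE 0.071) in Flt3- GPs. Whether handling of the samples had a part in these levels was not tested.

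Interferon-stimulated genes were higher as well. Of 60 measured members 30 rose and 9 fell, with a median of 0.22. Oas2, an antiviral synthetase, read 0.44 and 0.52 on the wild-type and 2.78 and 2.74 on the Irf8KO-labelled arrays, a rise of 4.87-fold (2.28, SE 0.051, adjusted p = 1.65e-05). Rtp4 rose by 1.62 (SE 0.063), the guanylate-binding protein Gbp2 by 1.10 (SE 0.078), the RNA sensor Ddx58 by 0.87 (SE 0.042) and Isg15 by 0.60 (SE 0.062). Rsad2 (0.16) and Oas1a (0.084) did not pass the test. In Flt3+ GPs 13 members rose and 18 fell, and 26 were higher and 4 lower in the interaction. Among the interferon regulatory factors, Irf7 rose by 0.59 (SE 0.10), Irf1 by 0.51 (SE 0.048) and Irf9 by 0.24 (SE 0.044), and Irf5 fell by 0.70 (SE 0.099). Of the 44 measured members of the interferon-stimulated list with a promoter window 20 (45.5%) matched the interferon response element.

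Ccl3, Ccl4 and Ccl5, inflammatory chemokines, rose in Flt3- GPs and fell in Flt3+ GPs. Ccl3 read -2.04 and -2.20 on the wild-type and -0.43 and -0.43 on the Irf8KO-labelled Flt3- arrays, a rise of 3.24-fold (1.69, SE 0.064, adjusted p = 7.99e-05). In Flt3+ GPs it read 2.11 and 2.08 and 1.51 and 1.43, a difference of -0.63, and its interaction was 2.32 (SE 0.091, adjusted p = 0.000285). Ccl4 behaved alike, with 1.21 (SE 0.047) in Flt3- and -0.71 (SE 0.047) in Flt3+ GPs, as did Ccl5, with 1.09 (SE 0.067) and -0.59 (SE 0.067). Of 27 measured chemokines and their receptors 9 rose and 4 fell. Il2rb, an interleukin 2 receptor chain of T and NK cells, rose by 1.76 (SE 0.11) in Flt3- GPs and stood at -0.89 (adjusted p = 0.00299) in Flt3+ GPs, an interaction of 2.65 (adjusted p = 0.000812). Cd3d, a chain of the T cell receptor complex, was at least 3.20-fold higher on the Irf8KO-labelled Flt3- arrays and was not well above background in either Flt3+ group. Of the 22 measured T and NK cell genes 6 rose and 5 fell, Thy1 among the latter (-1.33), Cd3e (0.038) and Klrb1c (0.20) did not pass the test, and the summed level was 6.77 to 6.79 on the wild-type and 6.68 to 6.71 on the Irf8KO-labelled arrays. The part of such cells in these differences was not tested.

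Of 42 measured cytokine and colony-stimulating factor receptors 18 rose and 6 fell, with a median of 0.10. Flt3 itself, by which the populations were sorted, read 1.69 and 1.66 on the wild-type and 2.71 and 2.68 on the Irf8KO-labelled Flt3- arrays, a rise of 2.03-fold (1.02, SE 0.038, adjusted p = 7.99e-05). Its other probe well above background rose by 0.71, which is less than 2-fold. On the Flt3+ arrays it read 6.21 and 6.21 in wild type and 6.29 and 6.30 in Irf8KO-labelled samples, so both Flt3- groups lay well below the Flt3+ groups. Il10ra, the interleukin 10 receptor, rose by 1.04 (SE 0.067), Il6st, the shared receptor chain of the interleukin 6 family, by 0.85 (SE 0.061), and Tnfrsf1b, a receptor for tumour necrosis factor, by 0.72 (SE 0.050). The shared chain Csf2rb (0.092) did not pass the test.

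Transcription factors of the granulocyte lineage moved in both directions. Of 77 measured haematopoietic transcription factors 22 rose and 17 fell, with a median of 0.043. Cebpa, Cebpb and Cebpd, which drive granulocyte and inflammatory genes, rose by 0.36 (SE 0.041), 0.44 (SE 0.041) and 0.80 (SE 0.048). Cebpe, which is needed for secondary granules, fell by 0.47 (SE 0.058), and Gfi1, a repressor of monocyte genes, rose by 0.34 (SE 0.066). The IRF8 partner Spi1 stood at -0.19 (SE 0.071, adjusted p = 0.073). In the list of stem and multipotent progenitors 15 of 37 measured members fell and 9 rose, with a median of -0.094, among them Angpt1, an angiopoietin (-0.68), and Procr, the protein C receptor (-0.67).

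Dendritic and lymphoid genes showed no common direction. Of 21 measured conventional dendritic cell genes 7 rose and 1 fell, with a median of -0.082 (0.129 with the offset of 50), and Itgax, the integrin CD11c, rose by 1.34 (SE 0.14). Clec9a (-0.35) and Zbtb46 (-0.082), which define these cells, did not pass the test. Of 25 measured plasmacytoid dendritic cell genes 6 rose and 6 fell, and the transcription factor Spib fell by 2.30 (SE 0.47) and was well above background on 1 of the Irf8KO-labelled arrays. Of 28 measured B cell and early lymphoid genes 12 rose and 8 fell. Within them the surrogate light chain genes Vpreb1 and Vpreb2 rose by 1.14 (SE 0.065) and 1.16 (SE 0.090), while Vpreb3 fell by 2.30 (SE 0.094). Ly6d, a marker of lymphoid and dendritic precursors, fell by 2.14 (SE 0.23) in Flt3- GPs and rose by 2.31 (SE 0.23) in Flt3+ GPs. Of 26 measured apoptosis genes 10 rose (6 without either wild-type array) and 8 fell, with Bmf, a killer of the BCL2 family, higher by 1.34 (SE 0.089) and Bcl2 lower by 0.76 (SE 0.068).

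Receptors of the innate surface and the cell's adhesion molecules were mixed. Of 24 measured C-type lectin and Trem receptors 8 rose and 5 fell, with Tyrobp, the adaptor that signals for many of them, higher by 0.91 (SE 0.057) and Trem2 lower by 0.78 (SE 0.16). Of 9 measured Fc receptors 3 rose and 3 fell: Fcgr3, a low-affinity receptor for IgG, rose by 0.75 (SE 0.058), and the inhibitory Fcgr2b fell by 0.30 (SE 0.050). Of 30 measured integrins, selectins and adhesion molecules 12 fell and 4 rose. Itgal and Itgb2, the chains of LFA-1, fell by 0.42 (SE 0.069) and 0.36 (SE 0.081), and Itgb5 rose by 1.51 (SE 0.046).

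Of 12 measured NADPH oxidase genes 5 rose and 1 fell, with Cybb, the catalytic subunit of phagocytes, higher by 0.62 (SE 0.12) and Ncf1 by 0.38 (SE 0.053). Of 13 S100 proteins 4 rose and 2 fell, and of 13 members of the Ly6 family 3 rose and 3 fell. Of 29 ABC transporters 12 fell (6 without the wild-type array of experiment 2 or the Irf8KO-labelled array of experiment 1) and 7 rose. Abca9, given above, had the largest change (3.84), and the multidrug transporter Abcb1b was lower by 1.06 (SE 0.067). Plasma cell genes were divided, with 3 of 8 higher, Sdc1 (3.04) and Jchain (0.73) among them, and Mzb1 (-0.90) and Derl3 (-0.33) lower. Of 13 stromal and endothelial genes 3 fell and 2 rose, with Vcam1, an adhesion molecule that macrophages also carry, lower by 1.00 (SE 0.10). Of the 4 Y-linked genes Uty, Eif2s3y and Ddx3y were well above background on all 4 Flt3- arrays and Kdm5d on 2 of them. Their differences were 0.24 to 0.41, of which those of Eif2s3y and Ddx3y passed the test.

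**Figure D4:**
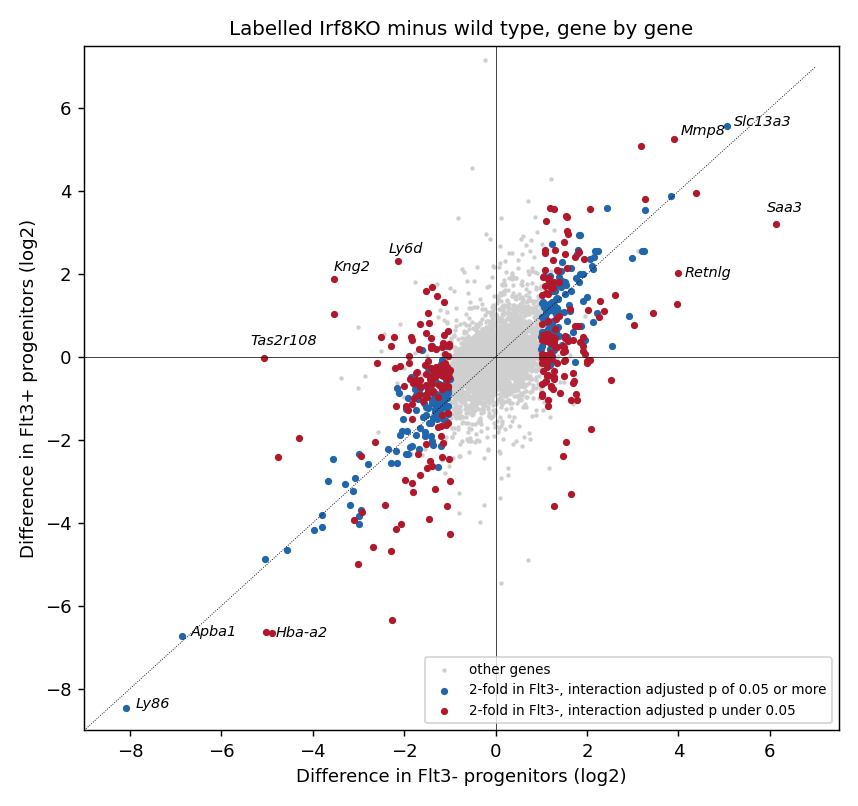
Genotype difference of each of the 14105 genes (log2, Irf8KO-labelled minus wild type) in Flt3- GPs (horizontal axis) and Flt3+ GPs (vertical axis); blue and red points are the 512 genes called at least 2-fold in Flt3- GPs, red where the interaction had an adjusted p under 0.05, and the dotted line marks equal differences. Fitted values are plotted, also where a group was not well above background. Ly86 lies near that line and Retnlg to the right of it.

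The 2 populations share no array, so their differences can be set side by side. Of the 512 genes called at least 2-fold in Flt3- GPs, 233 (45.5%, and 39% of the 597 called 2-fold in Flt3+ GPs, which were 4.23% of all genes, 2.19% higher and 2.04% lower) were called 2-fold in the same direction in Flt3+ GPs, and 12 in the opposite direction. For 272 of the 512 the size of the difference itself differed between populations by the interaction test. In Flt3+ GPs the difference of Ly86 was -8.46, Apba1 fell at least 29.6-fold, the fall of Aif1 was at least 17.7-fold, and none of these passed the interaction test (adjusted p = 0.175, 0.561 and 0.832). Their Irf8KO-labelled Flt3- levels were near or below the lowest measurable signal. The test therefore cannot show whether these falls were equal in the 2 populations. Ccr2 rose by 2.19 and S100a9 by 2.00 in Flt3+ GPs, and their interactions of -0.086 (SE 0.075, adjusted p = 0.432) and -0.087 (SE 0.058, adjusted p = 0.308) did not pass the test.

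Retnlg rose by 3.99 in Flt3- and by 2.02 (SE 0.084) in Flt3+ GPs, an interaction of 1.97 (SE 0.12, adjusted p = 0.000894). Its Flt3- rise starts from low wild-type signals, so the size of this interaction is uncertain. Saa3 was not well above background on the wild-type arrays of either population and was at least 23.5-fold higher in Flt3- and at least 2.60-fold higher in Flt3+ GPs, which are lower bounds and give no order. Mmp8 rose by 5.25 (SE 0.064) in Flt3+ GPs, and its rise in Flt3- GPs has only the lower bound given above. Of the 20 primary granule genes 15 rose in Flt3+ GPs, 12 were lower and 1 higher in the interaction, and Elane rose by 0.49 in Flt3- against 2.34 (SE 0.054) in Flt3+ GPs. Trem3, an activating receptor of myeloid cells, rose by 0.71 (SE 0.058) in Flt3- and by 3.76 (SE 0.058) in Flt3+ GPs.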

How the data were processed

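RNA of the 8 samples was measured on 1-colour (Cy3) Agilent arrays, and titles gave the groups. Per the file headers, the deposited intensity values are linear, background subtracted and detrended within each array by Agilent Feature Extraction 10.7.3.1 (protocol GE1_107_Sep09), and not scaled between arrays. Median spot and background intensities and per-spot flags (0 or 1) were also used as deposited. The deposited series table equals the processed intensity scaled by 1 factor for each array (0.672 to 1.33), linear and uncentred, with a 75th percentile of 426.2 and column medians of 26.9 to 29.9; the sources used here do not say how the authors made it, and it served only as an alternative. Its rows were matched to scanner probes by probe name.

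Control and outlier spots were dropped (93 to 178 outlier spots an array, none saturated), repeat spots were averaged per probe, and each value is the log2 intensity minus the log2 of its array's 75th percentile. Of 55681 probes 26762 were named by RefSeq accession (GRCm38.p6, 20284 genes), and the probe with the highest mean stood for each of 5405 genes with several. Genes well above background in both replicates of any group were tested with limma 3.58.1 (R 4.3.3), 1 mean per group over all 8 arrays, 4 residual and 1.77 prior degrees of freedom, Benjamini-Hochberg adjusted p under 0.05. The fit was tested on simulated data. Where both arrays of a group were dim for a gene, the fold is a lower bound, taken against the higher of the probe's own and the lowest measurable signal; list medians at the bound take these values, with 0 for a bound below 1-fold. Names followed a rule: the 15 highest and 15 lowest differences, up to 6 called members per list with those that define a role, the Ly86 partners, and the 6 highest and lowest interactions; role members, Trem2, Trem3, Itgal, Itgb2 and Csf1r among them, were picked with their values known. The comparison, its members and the gene lists were chosen with earlier results of these data known. The Ear, Hba, Hbb, Klra, Mrgpra, Naip and Oas families hold near-identical members that can share hybridisation. Promoter sequences came from RefSeq (GRCm38.p6) and were searched on both strands for short matches named by factor type.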

Additional observations from a re-analysis of the deposited data

Results flagged for a closer look

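The genes examined here were those with the 15 highest and 15 lowest differences in Flt3- GPs, those with the 6 highest and 6 lowest interactions, and Irf8, Flt3, Ly86, Saa3, Retnlg, Cd180, Tlr4, Tlr2 and Ly96. For 28 of them, and for others named above such as Plk1 and Ccnd1, the genotype difference in Flt3- GPs was unequal to that in Flt3+ GPs by the limma interaction test (adjusted p under 0.05), given here as the Flt3- minus the Flt3+ difference on the fitted log2 scale. Those of lower sign were Kng2 (-5.42), Tas2r108 (-5.06), Lbhd2 (-4.58), Ly6d (-4.45), Esm1 (-4.18), Wnt9a (-3.23), Rhd (-2.34), Lpl (-2.34), Slc36a2 (-1.90), Mmp8 (-1.35), Tctex1d1 (-0.54) and Cd180 (-0.41). Those of higher sign were Tmem178 (0.41), Tlr4 (0.44), Flt3 (0.94), Hba-a2 (1.62), Hba-a1 (1.77), Retnlg (1.97), Sdc1 (2.27), Cfb (2.39), Ces2b (2.71), Saa3 (2.92), Klra4 (3.86), Ppbp (4.06), Cd2 (4.88), Klra8 (4.97), E030013I19Rik (5.56) and Cavin2 (5.59).

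Several of these values rest on groups near the background, where a fitted value is no measured size. Mmp8, Saa3, Cfb and Ces2b were not well above background on the wild-type Flt3- arrays, nor Rhd, Lpl, Ppbp and Esm1 on the Irf8KO-labelled Flt3- arrays, nor Slc36a2 on the wild-type Flt3+ arrays. Kng2, Tas2r108 and Lbhd2 were well above background on both arrays only in wild-type Flt3- GPs, where Kng2 read -4.61 and -2.75, and Wnt9a and E030013I19Rik were not well above background in either Flt3- group. Klra8, an activating receptor of NK cells, read -3.84 and -3.71 on the wild-type and -2.15 and -2.09 on the Irf8KO-labelled Flt3- arrays, and -3.80 and -3.94 and -7.26 and -7.12 on the Flt3+ arrays, where it was dim in the Irf8KO-labelled group. Cd2, an adhesion molecule of T and NK cells, rose by 1.29 in Flt3- GPs and fell at least 2.75-fold in Flt3+ GPs. Cavin2, a caveolar protein of platelets and endothelium, rose by 0.70 in Flt3- GPs and fell at least 6.55-fold in Flt3+ GPs. The wild-type Flt3- signals of Retnlg and Sdc1 were low too. Ly6d, in contrast, was well above background on at least 1 array of every group.

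By the interaction test 40 of 41 G2 and M phase genes, 43 of 50 S phase genes and 38 of 46 ribosome biogenesis genes were lower in Flt3- GPs, and none of them higher. Of 43 immediate early and heat shock genes 19 were higher and 9 lower, and of 60 interferon-stimulated genes 26 were higher and 4 lower. These 5 lists are not the only ones with such counts. Of 20 primary granule genes 12 were lower and 1 higher. Of 37 stem and multipotent progenitor genes 18 were higher and 4 lower, and of 28 megakaryocyte and platelet genes 14 were higher and 2 lower. These counts stand against 9.47% higher and 21.3% lower over all genes.

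Among 13057 probes that were not named here and were well above background on both arrays of a Flt3- group, 2812 were called, of which 241 rose and 75 fell at least 2-fold.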

How the results depend on the processing

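The count of called genes in Flt3- GPs stayed within 1.5 times its value under every alternative tried except leaving out an array, where it ran from 4051 (without the wild-type array of experiment 2) to 6425, with 1495 to 2493 higher and 2541 to 3932 lower. Calls of at least 2-fold depended on how dim genes were treated. With the background correction and its offset of 50 there were 149 (75 higher, 74 lower), and among genes well above background on all 8 arrays 277 (140 higher, 137 lower). The Flt3+ count was 2657 without a filter, 2655 from its own 4 arrays and 1991 to 3656 with an array left out. The interaction count was 2695 without a filter and 2502 to 4390 with an array left out. The rising Toll-like receptor genes numbered 6 to 14 with an array left out. Differences changed sign and lost their call for Cd74 (0.013), Ifit3b (0.080), Il7r (0.055) and Itga2 (0.10) with the offset of 50, where the limma adjusted p ran from 0.357 to 0.886, and for Cd80 (-0.10, adjusted p = 0.72) and Cdkn1a (-0.26, adjusted p = 0.335) when all probes were averaged. The other called genes that the text or the naming rule names, 270 in all with these 6, kept their sign under the alternatives in which they were measured. Leaving out 1 of the Flt3- arrays ended the call of 20 to 27 of them, the experiment block of 7. Of the genes described above, the call ended without at least 1 Flt3- array for Cd180, Cd74, Cybb, Derl3, Eif2s3y, Gfi1, Irf9, Itgb2, Klf4, Mcpt8, Mki67, Spib, Tlr2 and Trem2, and with the offset of 50 for C1qa, Derl3, Fcna, Irf9, Mzb1, Ppbp, Spib and Trem2. Averaging all probes instead of the brightest left 5914 calls. The alternative that kept only genes measured in a Flt3- group (6261 calls) was chosen after seeing the data.

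The experiment numbers did not pair the samples: deviations from the group means correlated at 0.01 between the Flt3- groups, and 0.103 at most over all pairs of groups. With experiment as a replicate block 6202 genes were called, 498 at least 2-fold, and 5845 of the calls were shared with the fit without it.

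The number of arrays, 2 a group, limits the precision. Signals near background bound the folds of dim genes, and position on the single slide cannot be told apart from genotype or population.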
